A study of Homo sapiens with 12 samples.

Results

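Keratins are the intermediate filament proteins of epithelial cells, and 6 of their genes are described here across siRNA knockdowns of NFYA in HCT116 cells, an established human colorectal cancer line with epithelial character. The members are KRT7, KRT8, KRT10, KRT18, KRT19 and KRT80, taken from the 63677 genes of the count table through their Ensembl identifiers. They were chosen by their read counts in these libraries, as keratins expressed in HCT116, and KRT7 and KRT80 partly because they differ between the control groups. All 6 passed the filter on low counts that 17730 genes passed. The 12 libraries of polyadenylated RNA form 6 groups of 2. Cultures called mock went through transfection without any siRNA, and siControl received the non-targeting siGENOME siRNA #3. Groups siTotal1 and siTotal2 received siRNA #1 or #2 to all NFYA transcripts, and siLong1 and siLong2 received siRNA #1 or #2 to only those NFYA transcripts whose 3′ untranslated region is longest. Every siRNA was delivered with a lipid reagent at 62.5 nM, and every culture was collected at 72 h. NFYA encodes the DNA-contacting subunit of NF-Y, the trimeric factor of CCAAT boxes. The design text names the libraries of a group biological duplicates of 1 cell line, so the tests measure the spread between 2 cultures and not between siRNA sequences.

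A keratin filament is built from obligate pairs of 1 type I (acidic) and 1 type II (basic to neutral) protein. KRT8 (type II) with KRT18 (type I) is the founding pair of simple epithelia, which line the gut in a single cell layer, and KRT19 (type I) and KRT7 (type II) are further keratins of simple epithelia. KRT19 has an unusually short tail, and KRT7 marks ducts and several glands more than it marks colon. KRT10 (type I) belongs to the upper layers of the epidermis, where it pairs with KRT1. KRT80 (type II) is found in hair follicles and in many epithelia. Keratin filaments are anchored at desmosomes and hemidesmosomes by plakin proteins.

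Positions below are those of GENCODE 29 on GRCh38, matched by identifier, while the submitters' processing notes name hg19. KRT8 (ENSG00000170421, minus strand) spans bases 52897187 to 52949954 of chromosome 12, and KRT18 (ENSG00000111057, plus strand) spans 52948871 to 52952901 beside it. Their exons overlap on opposite strands. Which strand the counting used stays not given in the sources used here, so how reads of the shared stretch were counted is not known. KRT7 (ENSG00000135480, plus strand, 52232520 to 52252186) and KRT80 (ENSG00000167767, minus strand, 52168996 to 52192000) lie on chromosome 12 as well. The type I genes KRT10 (ENSG00000186395, minus strand, 40818117 to 40822595) and KRT19 (ENSG00000171345, minus strand, 41523617 to 41528308) lie on chromosome 17. KRT7 overlaps KRT7-AS, which held 0 to 2 reads per library. KRT10 shares exonic sequence with the opposite-strand gene KRT10-AS1, which held 668 to 1229 reads per library. Processed pseudogenes are many for the pair: 51 listed KRT8 pseudogenes together held 1.75% to 2.38% of the KRT8 reads, and 67 KRT18 pseudogenes held 0.872% to 1.28% of the KRT18 reads.

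Words of the 4 NFYA siRNAs were searched in the keratin transcripts, since an siRNA can also act on other mRNAs through the seed of its antisense strand. The sense strands are written 5′ to 3′ from the labels, with the 7 bases that pair with antisense bases 2 to 8 in capitals. The labels list 2 sequences per target without stating which is #1.
siTotal, listed as sequence 1: acuagaggcagAAGGGAAa
siTotal, listed as sequence 2: uggugaaggugGACGAUUu
siLong, listed as sequence 1: agugaucauugUAGGGUAa
siLong, listed as sequence 2: ggucauuccuuUAGCAUCa
Each of the 4 words in capitals, searched on the transcript strand, was in 0 of the 21 protein-coding GENCODE 29 transcripts of the members. In the longest coding transcript of 13242 tested genes, the words occurred in 34.7%, 4.57%, 7.07% and 12.4%, in the order of the lines above. Absence of the letters says nothing about pairing through other bases or the passenger strand.

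Promoter sequence was at hand in the RefSeq table (GRCh38.p14) for 2 members, KRT8 and KRT10, and KRT7, KRT18, KRT19 and KRT80 had no entry. The window runs from 250 bases before to 50 bases after the start annotated in that table. CCAAT, the core word of NF-Y sites, was searched on both strands (as CCAAT or ATTGG), and 34.6% of the 35116 promoters in the table hold it. KRT10 holds it once, reversed, 143 bases before its start, at chr17:40822743-40822767 (minus strand), shown here with the word in capitals.
KRT10 promoter: acatattaggATTGGttattactga
The KRT8 window, at chr12:52926420-52926719, does not hold these letters. It lies inside the GENCODE span of KRT8 given above and not at its outer end beside KRT18, and other KRT8 starts were not searched. A match is a run of letters and not evidence of binding.

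Libraries held 35604197 to 49746637 reads on genes. NFYA stood at 55.2 to 59.1 CPM (read counts brought to a common library size, with TMM factors for composition) in the control libraries and at 46.0 to 47.8 CPM in siTotal1, siTotal2 and siLong1. It was at 69.7 and 70.1 CPM in the libraries labelled siLong2, which is against the direction of their label, although a gene-level count does not show the long transcript alone. Colon epithelial markers gave a mixed picture of the line: EPCAM (164 to 301 CPM), CDH1 (55.8 to 99.6 CPM) and CDX2 (14.95 to 19.1 CPM) were present, whereas VIL1, CDH17 and LGALS4 stayed at or under 0.318 CPM. Reads on mitochondrial transcripts made up 5.45% to 6.60% in the siLong libraries, 5.54% to 5.75% in siTotal2 and 3.83% to 4.98% in siTotal1 and the controls; their part in the results was not tested. In bulk RNA, fewer cells that express a gene and less RNA per cell cannot be told apart.

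KRT8, KRT18 and KRT19 dominated the keratins of HCT116. Together they held 95.3% to 98.2% of the reads on the 54 human keratin genes, the 6 members held 98.1% to 99.1%, and all keratins together took 0.308% to 0.511% of a library. Levels between genes are compared per kilobase. By merged exons, KRT19 stood at 383 CPM per kb, KRT8 at 282, KRT18 at 267, KRT10 at 15.8, KRT7 at 5.07 and KRT80 at 2.59 (means of 12 libraries). On this scale KRT19 ranked at place 65, KRT8 at 89 and KRT18 at 97 of 17242 genes with a length, against 3009 for KRT10, 7109 for KRT7 and 9408 for KRT80. The order of the leading genes depends on the length used, because merged KRT8 exons add up to 6881 bases while its lowest-numbered GENCODE transcript has 1882. Per kilobase of that transcript of each gene, KRT8 led with 1032 CPM per kb, before KRT19 with 643 and KRT18 with 549, while KRT10 (15.9), KRT7 (11.8) and KRT80 (2.90) kept their places.

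**Figure D1:**
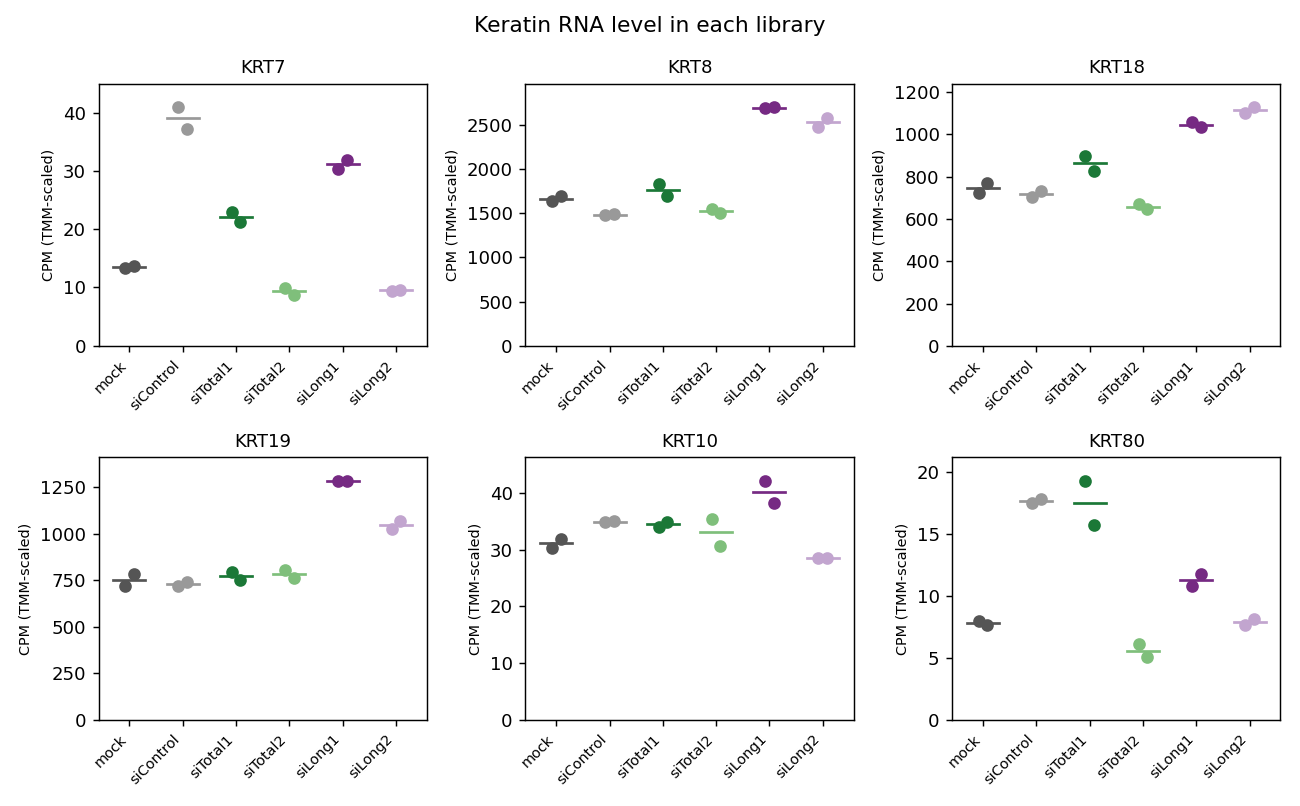
Level of each keratin (vertical axis, TMM-scaled CPM from 0) in the 6 groups (horizontal axis). Points are libraries and the line is the mean of the 2 libraries of a group. KRT8, KRT18 and KRT19 are highest in the siLong libraries, while KRT7 and KRT80 are lowest in mock, siTotal2 and siLong2.

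The siRNAs to the long NFYA form went with more RNA of the abundant simple keratins. KRT8, KRT18 and KRT19 rose in both siLong groups against both controls, in 12 of 12 tests, by 0.48 to 0.86 on the log2 scale. Over all tested genes, 25.2% to 26.4% were called higher in these comparisons. The siTotal against siLong values of these genes, which use the same siLong libraries, were known when the genes were picked. The tests are therefore not independent of that choice, and as they share libraries they are not independent of each other. Each of the 4 siLong libraries lay above each of the 8 other libraries for all 3 genes. The share of all tested genes with such a separation was not counted, so it does not set these genes apart. KRT8, the type II partner of the pair, was at 2685 and 2696 CPM in siLong1 and at 2472 and 2580 CPM in the libraries labelled siLong2. Values were 1474 and 1491 CPM in siControl and 1633 and 1694 CPM in mock. The control groups did not overlap each other for KRT8, but both lay below the siLong libraries. Against siControl KRT8 rose by 0.86 in siLong1 (SE 0.04, edgeR adjusted p = 1.2e-18) and by 0.77 in siLong2 (SE 0.04, adjusted p = 3.05e-17). Against mock the rises were 0.69 (adjusted p = 6.7e-16) and 0.60 (adjusted p = 2.8e-14).

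KRT18, the type I partner, followed with a smaller change. Its level was 1059 and 1033 CPM in siLong1 and 1101 and 1128 CPM in siLong2. Control libraries held 705 and 733 CPM (siControl) and 724 and 771 CPM (mock), and those control groups overlapped. The rise against siControl was 0.54 in siLong1 (SE 0.04, edgeR adjusted p = 4.4e-13) and 0.63 in siLong2 (SE 0.04, adjusted p = 7.0e-15). With mock as the control it was 0.49 (adjusted p = 8.3e-12) and 0.58 (adjusted p = 9.7e-14).

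KRT19, the keratin with the short tail, had its highest values in siLong1, at 1283 CPM in both libraries, and stood at 1027 and 1067 CPM in siLong2. It was at 716 and 740 CPM in siControl and at 720 and 786 CPM in mock, which overlapped. Against siControl it rose by 0.82 in siLong1 (SE 0.04, edgeR adjusted p = 9.6e-18) and by 0.52 in siLong2 (SE 0.04, adjusted p = 1.6e-12). Against mock it rose by 0.77 (adjusted p = 8.4e-17) and 0.48 (adjusted p = 2.1e-11).

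KRT10, the epidermal keratin, moved in opposite directions under the siLong siRNAs. Its level was 42.2 and 38.4 CPM in siLong1, 28.6 and 28.5 CPM in siLong2, 34.9 and 35.1 CPM in siControl and 30.3 and 32.0 CPM in mock. The siLong1 libraries lay above all others and the siLong2 libraries below all others. In siLong1 KRT10 rose by 0.20 against siControl (SE 0.06, edgeR adjusted p = 0.0060) and by 0.37 against mock (SE 0.06, adjusted p = 4.3e-06), but without siLong1 replicate 1 the rise against siControl was 0.13 (adjusted p = 0.15). In siLong2 it fell by 0.29 on the log2 scale against siControl (SE 0.06, adjusted p = 2.3e-04) and was at -0.12 against mock (adjusted p = 0.11). Reads of the opposite-strand KRT10-AS1 numbered 709 and 668 in siLong1, the lowest of the 12 libraries; their part in the KRT10 values was not tested.

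Calls among the tested members (KRT8, KRT10, KRT18 and KRT19) stood against a large background. All 4 rose in siLong1 against siControl, where 54.5% of all tested genes were called, 26.4% higher and 28.1% lower. All 4 also rose against mock (52% called, 26% higher and 26.1% lower). In siLong2 against siControl 3 rose and 1 fell (52.7% called, 25.9% higher and 26.9% lower), and against mock 3 rose (50.3% called, 25.2% higher and 25% lower). The median difference of KRT8, KRT18 and KRT19 was 0.82 in siLong1 and 0.63 in siLong2 against siControl, beside 0.00 and -0.01 over all tested genes. Comparisons with the same control share its libraries, so they are not independent of each other.

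**Figure D2:**
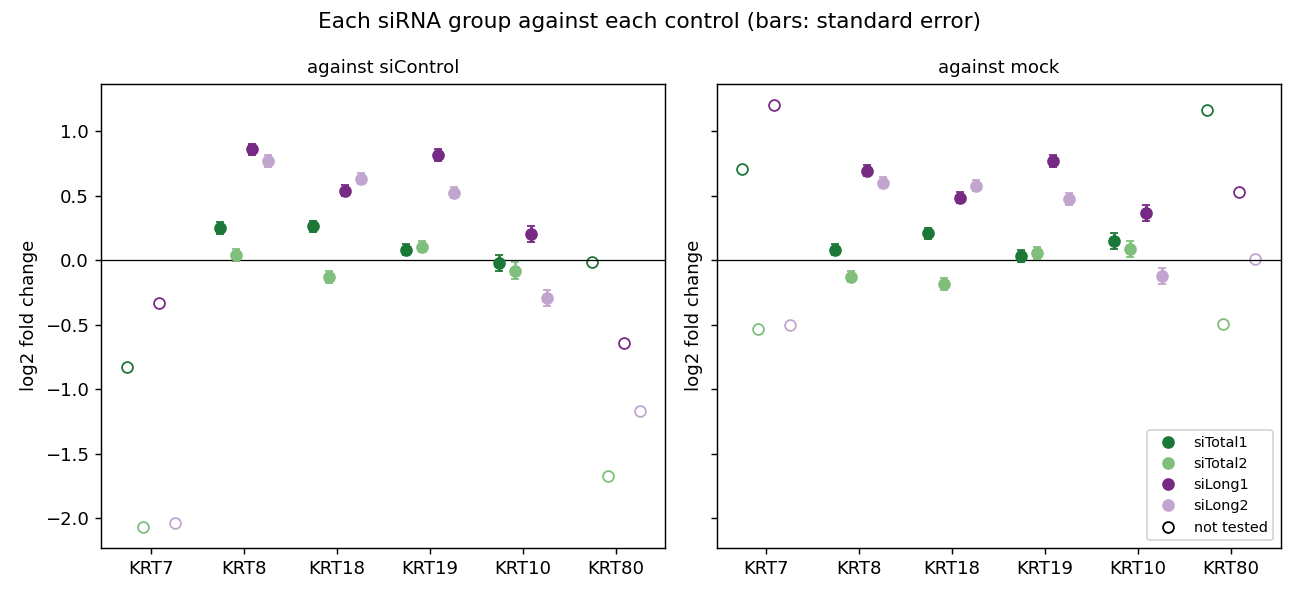
Log2 fold change (vertical axis) of each keratin (horizontal axis) in the 4 siRNA groups against siControl (left) and mock (right). Filled points are tested values with the standard error, and open points are values of KRT7 and KRT80, which were chosen partly for a difference between the controls. KRT8, KRT18 and KRT19 lie above 0 in both siLong groups in either panel, and the KRT7 and KRT80 values shift with the control.

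The siTotal siRNAs, which target all NFYA transcripts, went with small and mixed differences of the same genes. Among 12 tests of KRT8, KRT18 and KRT19 against either control, 3 were called higher, 3 lower and 6 were not called. Over all tested genes, 26.7% to 45.1% were called in these comparisons, in both directions, so the counts alone do not set these genes apart. KRT18 rose in siTotal1 (898 and 828 CPM), by 0.26 against siControl (SE 0.04, edgeR adjusted p = 5.1e-06) and by 0.21 against mock (adjusted p = 1.8e-04). In siTotal2 (670 and 645 CPM) KRT18 fell, by 0.13 against siControl (adjusted p = 0.015) and by 0.18 against mock (adjusted p = 0.0015). Leaving out either siTotal2 replicate 2 or siControl replicate 2 ended the siControl call (adjusted p = 0.11 and 0.13), and leaving out mock replicate 2 ended the mock call (adjusted p = 0.057).

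KRT8 was at 1827 and 1698 CPM in siTotal1 and at 1551 and 1498 CPM in siTotal2. In siTotal1 it rose by 0.25 against siControl (SE 0.04, edgeR adjusted p = 1.1e-05) but was at 0.08 against mock (95% interval -0.02 to 0.19, adjusted p = 0.13). In siTotal2 it was at 0.04 against siControl (95% interval -0.07 to 0.15) and fell by 0.13 against mock (adjusted p = 0.029), a call that ended without siTotal2 replicate 2 (adjusted p = 0.23) or mock replicate 2 (adjusted p = 0.20). KRT8 against mock in siTotal1 was called without siTotal1 replicate 2 (0.15, adjusted p = 0.0037). KRT19 (792 and 750 CPM in siTotal1, 807 and 761 CPM in siTotal2) was not called against either control, with differences of 0.03 to 0.11. KRT19 in siTotal1 against siControl was called without siTotal1 replicate 2 (0.12, adjusted p = 0.031), and in siTotal2 against siControl without siTotal2 replicate 2 (0.14, adjusted p = 0.046). KRT10 was not called in siTotal1 (34.1 and 35.0 CPM) or siTotal2 (35.5 and 30.8 CPM) against either control, but without siTotal2 replicate 1 it was called lower there against siControl (-0.18, adjusted p = 0.043).

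Of the 4 tested members, 2 rose in siTotal1 against siControl (43.4% of all tested genes called, 22.9% higher and 20.5% lower) and 1 rose against mock (40.9% called, 22.1% higher and 18.7% lower). In siTotal2, 1 fell against siControl (45.1% called, 22.6% higher and 22.6% lower) and 2 fell against mock (26.7% called, 14.1% higher and 12.6% lower).

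Set directly against each other, siTotal (mean of both siRNAs) held less RNA of the simple keratins than siLong. KRT8 was lower by 0.67 on the log2 scale (-0.67, SE 0.03, edgeR adjusted p = 9.4e-20), KRT19 by 0.58 (-0.58, SE 0.03, adjusted p = 1.05e-17) and KRT18 by 0.52 (-0.52, SE 0.03, adjusted p = 1.1e-16). These 3 values formed part of the earlier results known when the genes were picked. They are therefore a description, and their adjusted p-values are not independent support. Against siLong1 alone, without the libraries labelled siLong2, they were -0.71, -0.72 and -0.47 in the same order. KRT10 was at -0.0045 and not called (95% interval -0.12 to 0.11), but against siLong1 alone it fell by 0.25 (adjusted p = 1.4e-04). KRT80 was at 0.06 (95% interval -0.12 to 0.24), and at -0.20 against siLong1 alone (adjusted p = 0.053). KRT7 was lower at -0.26 (SE 0.06, adjusted p = 1.6e-04), and at -1.12 against siLong1 alone, so its mean joins siLong groups that differ widely. In all, 4 of 6 members were called lower and 0 higher, where 53.4% of all tested genes were called, 28.1% higher and 25.3% lower. That count includes the 3 values known beforehand, so it is no test of the members against this background.

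KRT7 and KRT80 differed between siRNAs to the same target. KRT7, the ductal keratin, was at 22.9 and 21.2 CPM in siTotal1 and at 9.94 and 8.78 CPM in siTotal2. It was 2.36-fold higher in siTotal1 (log2 1.24, SE 0.08, edgeR adjusted p = 2.3e-15). In siLong1 KRT7 stood at 30.3 and 31.9 CPM and in siLong2 at 9.44 and 9.59 CPM, a 3.27-fold difference (log2 1.71, SE 0.08, adjusted p = 5.5e-20). Neither pair of groups overlapped.

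KRT80, the type II keratin of hair follicles and other epithelia, was at 19.3 and 15.7 CPM in siTotal1 against 6.09 and 5.03 CPM in siTotal2, a 3.16-fold difference (log2 1.66, SE 0.10, edgeR adjusted p = 1.2e-15). It stood at 10.8 and 11.8 CPM in siLong1 against 7.63 and 8.12 CPM in siLong2, a 1.43-fold difference (log2 0.52, SE 0.10, adjusted p = 5.3e-05). Again the groups did not overlap. The depth behind these values is modest: KRT80 had 197 to 694 reads per library and KRT7 339 to 1556.

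The other members differed less between siRNAs to 1 target. Between siTotal1 and siTotal2, KRT18 was higher in siTotal1 by 0.39 (SE 0.04, edgeR adjusted p = 2.5e-09) and KRT8 by 0.21 (SE 0.04, adjusted p = 1.4e-04), while KRT19 (-0.02) and KRT10 (0.06) were not called. Between siLong1 and siLong2, KRT10 was higher in siLong1 by 0.49 (SE 0.06, adjusted p = 3.3e-08) and KRT19 by 0.29 (SE 0.04, adjusted p = 6.5e-07), while KRT8 (0.09, adjusted p = 0.077) and KRT18 (-0.09, adjusted p = 0.076) were not called. When only the 4 siLong libraries were fitted, or when scaling used library size alone, both of these passed (adjusted p = 0.0089 and 0.042 for KRT8, 0.0020 and 0.016 for KRT18). Thus 4 of 6 members were called higher in siTotal1 than in siTotal2 (43.9% of all tested genes called, 23.3% higher and 20.6% lower) and 4 of 6 higher in siLong1 than in siLong2 (53.7% called, 26.7% higher and 27% lower). Of all calls between siTotal1 and siTotal2, 53.0% were higher in siTotal1, and 42.6% were when scaling used library size alone.

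**Figure D3:**
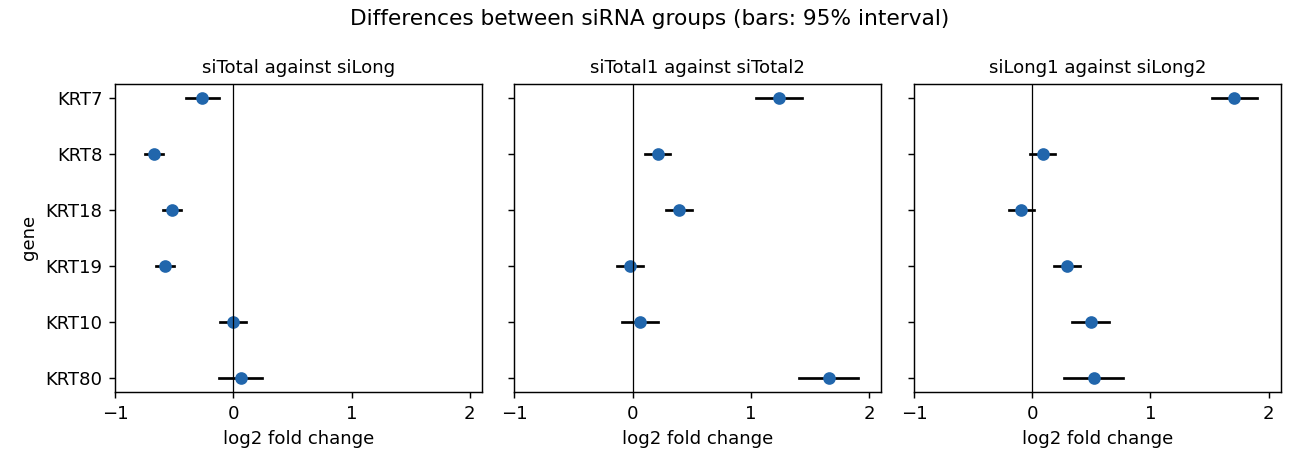
Log2 fold change (horizontal axis) of each keratin (vertical axis) between siRNA groups, with the 95% interval as a bar. KRT8, KRT18 and KRT19 lie left of 0 for siTotal against siLong, and KRT7 and KRT80 lie farthest right for siTotal1 against siTotal2.

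The control groups themselves differed for KRT7 and KRT80, which is how these genes were picked, so the values are given without a test. KRT7 stood at 40.9 and 37.2 CPM in siControl and at 13.3 and 13.7 CPM in mock, 2.90 times as high with the non-targeting siRNA. KRT80 stood at 17.5 and 17.8 CPM in siControl and at 7.99 and 7.63 CPM in mock, 2.26 times as high. For the remaining members mock differed from siControl by 0.17 (KRT8), 0.06 (KRT18), 0.05 (KRT19) and -0.17 (KRT10) on the log2 scale. Over all tested genes, 39.8% were called between these control groups, 19.5% higher and 20.3% lower in mock.

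The direction of KRT7 in siTotal1 and siLong1, and of KRT80 in siLong1, was not the same against both controls. Relative to siControl, KRT7 was at -0.82 in siTotal1, -2.06 in siTotal2, -0.33 in siLong1 and -2.04 in siLong2 (log2, no test). Relative to mock it was at 0.71, -0.53, 1.21 and -0.50 in the same order. KRT80 was at -0.01, -1.67, -0.64 and -1.16 against siControl and at 1.16, -0.50, 0.53 and 0.01 against mock, and the values near 0 have no stable direction. The siTotal1 value against siControl was -0.18 without siTotal1 replicate 1 and 0.13 without replicate 2, and the siLong2 value against mock was -0.0011 when scaling used library size alone. The 6 libraries of siControl, siTotal1 and siLong1 held 21.2 to 40.9 CPM of KRT7, above the 8.78 to 13.7 CPM of mock, siTotal2 and siLong2. For KRT80 the same libraries held 10.8 to 19.3 CPM and 5.03 to 8.12 CPM. This split was seen in the data and not planned, and its control part is the difference used to pick these genes. The share of all tested genes with the same split was not counted. In KRT7 the full order was siControl, siLong1, siTotal1, mock and then siLong2 with siTotal2, and only the last 2 groups overlapped. In KRT80, siControl overlapped siTotal1 at the top, siLong2 overlapped mock lower down, and siTotal2 was lowest.

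**Figure D4:**
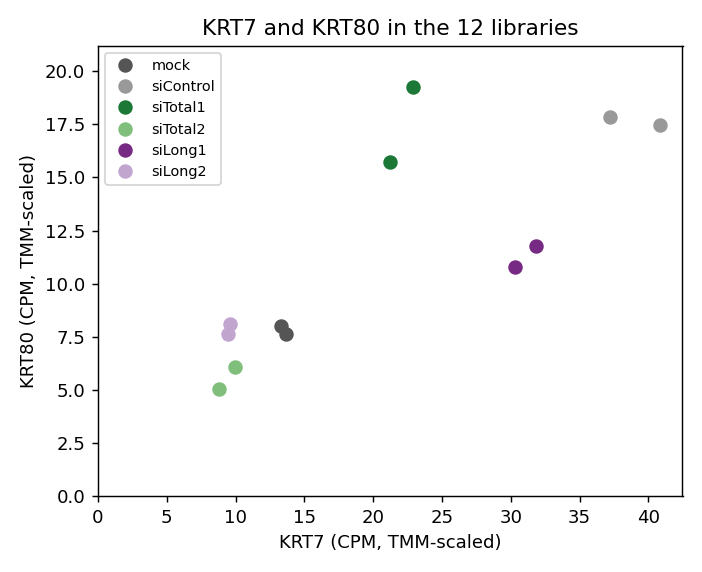
KRT7 (horizontal axis) against KRT80 (vertical axis), both in TMM-scaled CPM, 1 point per library and 1 colour per group. Libraries of mock, siTotal2 and siLong2 lie at the lower left, at most 13.7 CPM of KRT7 and 8.12 CPM of KRT80.

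Levels of the members over the 12 libraries are compared here by Pearson's r of log2 CPM with Spearman's rho. The libraries share groups and controls, so the coefficients describe these data only. KRT8 tracked KRT18 (r = 0.95, rho = 0.86) and KRT19 (r = 0.95, rho = 0.86), and KRT18 tracked KRT19 (r = 0.84, rho = 0.68). Without the control libraries r was 0.94, 0.94 and 0.78 in the same order. These genes were picked with their siTotal against siLong values known, so part of both sets of coefficients can come from that choice. KRT7 and KRT80 had r = 0.85 (rho = 0.83), but both were picked for a difference between the control groups, so part of this value comes from that choice. Over the 8 libraries without the controls it was 0.78 (rho = 0.74). KRT7 and KRT10 had r = 0.73 (rho = 0.66), and 0.82 (rho = 0.79) without the controls. KRT7 and KRT8 had r = -0.02 (rho = -0.09), and 0.37 (rho = 0.64) without the controls.

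The stoichiometry of the pair shifted less than its level. KRT8 reads per KRT18 read were 2.04 ± 0.011 in siTotal1, 2.06 ± 0.039 in siControl, 2.23 ± 0.041 in mock, 2.27 ± 0.030 in siLong2, 2.32 ± 0.0059 in siTotal2 and 2.57 ± 0.051 in siLong1 (mean ± SD, n = 2 libraries each). The ratio ranged from 2.03 to 2.61 over the libraries, while KRT8 itself ranged 1.83-fold and KRT18 1.75-fold. Per kilobase the KRT8 to KRT18 ratio was 0.951 to 1.22 with merged exons and 1.69 to 2.16 with the lowest-numbered transcripts. KRT19 reads per KRT18 read differed by siRNA: 1.19 ± 0.017 in siTotal2 and 1.23 ± 0.021 in siLong1, against 0.893 ± 0.017 in siTotal1, 0.939 ± 0.0098 in siLong2, 1.01 ± 0.017 in mock and 1.01 ± 0.0045 in siControl. The siTotal2 and siLong1 libraries lay above all others for this ratio. Summed per kilobase of the lowest-numbered transcripts, the type I members were 1.09 to 1.24 times the type II members in each library, and 2.16 to 2.49 times with merged exons.

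**Figure D5:**
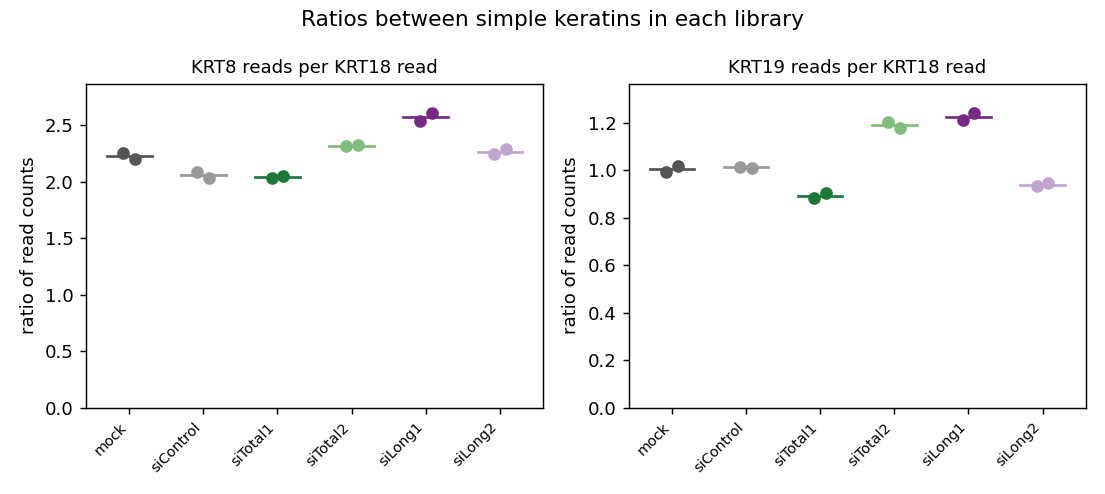
Ratio of read counts (vertical axis, from 0) in the 6 groups (horizontal axis) for KRT8 over KRT18 (left) and KRT19 over KRT18 (right). Points are libraries and lines are means of 2. The KRT8 ratio is highest in siLong1, at 2.57, and the KRT19 ratio is highest in siLong1 and siTotal2.

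Beyond the members, 13 of the other 48 keratins had enough reads to be tested, 24 had reads but were too low, and 11 had 0 reads. In siTotal against siLong, 2 of the 9 tested type I genes among them were called higher and 2 lower. Of the 4 tested type II genes 0 were higher and 2 lower. Over all tested genes 28.1% were called higher there and 25.3% lower, and so few keratins cannot be told apart from that background. KRT15 and KRT23 are type I keratins outside the members. In the mean of all libraries KRT15 (29.4 CPM) exceeded both KRT7 (20.8 CPM) and KRT80 (11.28 CPM), and KRT23 (11.44 CPM) exceeded KRT80. KRT15, a keratin of basal epithelial cells, stood at 50.2 ± 0.66 CPM in siTotal1, 37.5 ± 0.21 in siControl, 26.8 ± 2.1 in siLong1, 24.2 ± 1.6 in siTotal2, 19.3 ± 0.60 in mock and 18.3 ± 0.96 in siLong2 (SD, n = 2). It was thus higher in siTotal1 than in siTotal2 by 1.05 (log2, edgeR adjusted p = 3.7e-16) and in siLong1 than in siLong2 by 0.55 (adjusted p = 1.6e-08), the same sides as KRT7 and KRT80. KRT23 was on the opposite side between the siTotal siRNAs, at 7.63 ± 0.78 CPM in siTotal1 and 18.6 ± 0.62 CPM in siTotal2 (-1.29, adjusted p = 5.2e-14).

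KRT20, a keratin of differentiated gut epithelium, was at 4.04 and 5.20 CPM in siTotal2 and at or under 1.92 CPM in every other library. KRT13 stood at 3.27 ± 0.51 CPM in siLong1 and 1.04 ± 0.091 CPM in siLong2, against 0.602 CPM or less elsewhere. KRT6A stood at 2.03 and 2.57 CPM in siLong2 and at or under 0.226 CPM in every other library. KRT6A is 1 of 7 markers of stratified squamous epithelium, whose sum was 2.48 to 3.23 CPM in siLong2 and 0.131 to 0.423 CPM elsewhere. Most of the siLong2 sum is KRT6A itself: KRT5, KRT14, TP63 and IVL were at or under 0.340 CPM in every library, and KRT1 and LORICRIN were at 0. KRT32 (1.45 CPM on average) and KRT81 (1.43 CPM) were the other keratins with the most reads.

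Genes that anchor keratin filaments were read from a list of 23, of which 20 were tested. In siTotal against siLong, 14 were called lower and 4 higher (25.3% and 28.1% of all tested genes), with a median of -0.19 beside 0.01 over all tested genes. COL17A1, a collagen of hemidesmosomes, was lower by 1.51 in siTotal (-1.51, edgeR adjusted p = 3.6e-14), the desmosomal cadherin gene DSC3 by 0.81 (-0.81, adjusted p = 6.6e-15) and PERP, a desmosomal membrane protein gene, by 0.58 (-0.58, adjusted p = 8.0e-15). FBF1, which also serves at centrioles, was higher by 0.67 (adjusted p = 4.3e-06). PERP stood at 266 to 272 CPM in the siLong libraries and at 141 to 162 CPM in the control libraries, without overlap. The siTotal libraries also lay above the controls, at 192 to 193 CPM in siTotal1 and 166 to 171 CPM in siTotal2. PERP was called higher there against siControl (0.32 and 0.13) and mock (0.36 and 0.17), so its rise was not limited to siLong. Against siControl, 12 of the 20 were higher and 4 lower in siLong1 (26.4% and 28.1% of all tested genes) and 12 higher and 6 lower in siLong2 (25.9% and 26.9%). Against mock 13 were higher and 3 lower in siLong1 (26% and 26.1%), and 13 higher and 4 lower in siLong2 (25.2% and 25%). Against siControl 9 were higher and 6 lower in siTotal1 (22.9% and 20.5%), and 8 higher and 5 lower in siTotal2 (22.6% each). With mock as the control 7 were higher and 5 lower in siTotal1 (22.1% and 18.7%). In siTotal2 8 were higher and 2 lower against mock (14.1% and 12.6%), so a lean to higher calls was not limited to siLong.

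Other intermediate filament genes had 11 of 17 tested, with 4 higher and 2 lower in siTotal against siLong (median 0.19). Over all tested genes 53.4% were called there, 28.1% higher and 25.3% lower, so the number of calls is near the background. VIM, the vimentin gene of mesenchymal cells, was higher in siTotal by 1.08 (edgeR adjusted p = 1.5e-10), and LMNB1, which encodes the nuclear lamin B1, by 0.50 (adjusted p = 1.1e-16). VIM was low, at 8.17 CPM in siTotal1, 9.14 in siTotal2, 5.07 in siLong1 and 3.31 in siLong2 (means). Its controls differed more, at 5.22 CPM in mock and 1.25 CPM in siControl (log2 2.07). The siLong groups were thus higher than siControl but not higher than mock. DES, the desmin gene of muscle, was lower (-0.55, adjusted p = 1.0e-05), at 4.03 ± 0.033 CPM in siTotal1 and 4.03 ± 0.73 in siTotal2 against 4.76 ± 0.52 in siLong1 and 7.34 ± 0.33 in siLong2, and siTotal2 overlapped siLong1. NES, the nestin gene, had a mean difference of 0.37 (adjusted p = 1.4e-08) that joins siLong groups on opposite sides of siTotal. It stood at 48.3 ± 0.96 CPM in siLong1, 33.6 ± 2.4 in siTotal1, 35.4 ± 1.2 in siTotal2 and 14.6 ± 1.3 in siLong2 (SD, n = 2).

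Epithelial transcription factors had 22 of 25 tested. In siTotal against siLong 11 were lower and 4 higher (median -0.10), beside 25.3% and 28.1% of all tested genes. For ELF3, an ETS factor of epithelia, the mean difference of -0.74 (edgeR adjusted p = 1.1e-04) rests on siLong1. Its level was 101 ± 1.7 CPM in siLong1 and 24.0 ± 0.48 in siLong2, beside 33.7 ± 1.9 in siTotal1 and 25.8 ± 2.3 in siTotal2. For GRHL3, a grainyhead factor of surface epithelia, the mean difference of -0.69 (adjusted p = 5.1e-05) rests on siLong2. Its level was 7.08 ± 0.60 CPM in siLong2 and 1.73 ± 0.39 in siLong1, beside 2.29 ± 0.65 in siTotal1 and 2.06 ± 0.062 in siTotal2. OVOL1 was lower (-0.66, adjusted p = 2.5e-12). FOS, a subunit gene of AP-1, was higher in siTotal than in siLong (1.11, adjusted p = 1.3e-04). Against mock, FOS was lower in siTotal1 (-1.06), siTotal2 (-0.74), siLong1 (-1.71) and siLong2 (-2.32). Against siControl it was not called in siTotal1 or siTotal2 and was lower in siLong1 (-0.79) and siLong2 (-1.40).

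The genes whose pattern over the 12 libraries was nearest to each member were ranked by Pearson's r among 12414 genes with an average log2 CPM of at least 1. For KRT7 these were ZNF473 (r = 0.99), which works in histone mRNA processing, the kinase gene CSNK1E (0.97) and the deacetylase gene HDAC5 (0.97). ZNF473 stood at 41.8 CPM in siControl and 22.1 CPM in mock (means), so it shared the split between the controls. For KRT80 the nearest was IFFO2 (r = 0.98), an orphan member of the intermediate filament family, then R3HCC1 (0.97) and GATAD2A (0.96).

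KRT8 was nearest to the collagen-modifying gene PLOD3 (r = 0.98), the interferon-induced membrane gene IFITM3 (0.98) and the polarity gene PARD3 (0.97). KRT18 was nearest to SPRING1 (0.97), a regulator of SREBP processing, ZNF561 (0.97) and the RNA polymerase subunit gene POLR1C (0.97). KRT19 was nearest to the peptidase gene PGPEP1 (0.98), NOMO2 (0.98), whose reads are uncertain because it has near-identical copies, and F11R (0.97), which encodes a tight junction adhesion protein. F11R stood at 109 CPM in siLong1, 86.7 in siLong2 and 70.8 to 72.7 CPM in the other groups (means). KRT10 had no gene as near: TMEM167A (0.92), IST1 (0.92) and the clock gene PER2 (0.92) led.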

How the data were processed

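Polyadenylated RNA of 12 HCT116 cultures was sequenced, with groups and replicate numbers read from the titles. STAR (2.4.0f1) with featureCounts on hg19 is what the submitters' processing notes name. The deposited values are raw read counts per Ensembl gene, 1 column per library. The annotation release, strand setting and read filters stay not given in the sources used here. Symbols were matched for 52181 of 63677 identifiers, and for 52526 with GENCODE 29 names added.

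Counts were filtered with filterByExpr (minimum count 10, minimum total 15) and TMM-scaled. Contrasts of 6 groups were tested with edgeR 4.0.16 (R 4.3.3; quasi-likelihood F-test, robust; residual degrees of freedom 6; biological coefficient of variation, common value 3.57%) and adjusted by Benjamini-Hochberg over 17730 genes, called under 0.05. The 95% intervals use 6 degrees of freedom. Alternatives were other scalings, DESeq2 1.42.0, no filter, fewer groups, a replicate block, 1 library left out, siLong1 alone and, added after seeing the data, the length of each gene's lowest-numbered transcript and member correlations without the controls.

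On counts simulated for siTotal against siLong (17730 genes, 50 changed at each size), calls included 72% of the 1.2-fold genes, 98% of the 1.5-fold and the 2-fold genes and 100% of the 4-fold genes, and 10 of 194 calls were false. The changed genes were drawn from those averaging above 50 reads, and the siRNA groups otherwise shared a common mean. In the data 53.4% of genes were called in this comparison, so these rates hold for the simulated setting only. Libraries sharing a group were farther apart than counting noise alone (chi-square per degree of freedom 1.84 to 7.47).

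The members, gene lists and tests were chosen with earlier results of these data known. KRT7 and KRT80 were not tested against controls, nor any member between controls. By rule, the text names the 6 members, the 3 genes nearest to each by Pearson's r, up to 4 called members per list with the largest siTotal against siLong difference, and the 5 other keratins with the most reads.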

Additional observations from a re-analysis of the deposited data

Results flagged for a closer look

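Members were listed here where siRNAs to the same target gave different values by edgeR's test of the difference itself. Between siTotal1 and siTotal2 the log2 difference was 1.66 for KRT80, 1.24 for KRT7, 0.39 for KRT18 and 0.21 for KRT8. Between siLong1 and siLong2 it was 1.71 for KRT7, 0.52 for KRT80, 0.49 for KRT10 and 0.29 for KRT19. All 8 were higher in the group numbered 1, but only called differences are listed. On the other side and not called were KRT19 in the siTotal pair (-0.02) and KRT18 in the siLong pair (-0.09). KRT18 was called lower there with library size scaling or only the siLong libraries fitted. Over all genes 43.9% were called in the siTotal pair (23.3% higher and 20.6% lower in siTotal1). In the siLong pair 53.7% were called (26.7% higher and 27% lower in siLong1).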

How the results depend on the processing

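The number of genes called stayed within 1.5 times its value in every comparison and alternative run, including the range without 1 library (8655 to 9307 against 9472 for siTotal against siLong, and 3264 to 3703 against 4736 for siTotal2 against mock). Of 530 alternative values of the 50 tested member differences, 513 kept their side of the threshold. No called value changed sign, while 15 values of KRT10, KRT19 and KRT80 that were not called did, so those differences have no stable direction. KRT18, KRT8, KRT19 and KRT10 account for the calls lost or gained, which stand beside their results, except that KRT19 in siTotal2 against siControl also passed with library size scaling (0.12, adjusted p = 0.0050) and with only those groups fitted (0.10, adjusted p = 0.045). Replicate numbers showed no strong pairing of the libraries: 0 of 15 pairs of groups had deviations correlated above 0.1 (-0.09 to 0.10). Counting noise lowers such correlations, so they cannot exclude a weak pairing. The replicate block changed 0 member calls, with 9498 genes called for siTotal against siLong. With 2 libraries a group, small differences such as those of the siTotal groups rest on few cultures.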
